A study of Mus musculus with 30 samples.

Results

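The sites of ATF2 and of ATF7, a pair of closely related transcription factors, were compared in mouse 3T3-L1 pre-adipocytes early in the induction of fat cell formation. A site is a 400 bp genomic interval listed for a factor in chromatin immunoprecipitation with sequencing (ChIP-seq). Sites were sorted into 3 classes by identical coordinates: 4863 shared sites listed for both factors, 6684 ATF2-only sites and 2512 ATF7-only sites. Together these were 14059 of the 34724 intervals that the lists of 9 factors hold on chromosomes 1 to 19 and X.

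3T3-L1 is a mouse fibroblast line that can be turned into fat cells with hormones. All 9 libraries came from this line, held past confluence and then given 1 μM dexamethasone (a synthetic glucocorticoid), 0.5 mM IBMX (which raises cyclic AMP), 1 μg/ml insulin and 10% FCS (fetal calf serum) for 4 h before formaldehyde crosslinking. No untreated library entered the comparison. The antibodies from Santa Cruz were ATF2 (N-96) and ATF7 (S-15). The other factors were the AP-1 subunits cJun, JunB and FOSL2, the zinc-finger factors KLF4 and KLF5, the vitamin D receptor VDR and its dimer partner RXR.

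ATF2 and ATF7 belong to the bZIP proteins, which grip DNA as dimers through a basic region next to a leucine zipper. Both are known targets of the stress-activated kinases p38 and JNK, bind cyclic AMP response elements and related sequences, and can pair with each other or with Jun proteins. FOSL2 belongs to the Fos proteins, which do not form stable homodimers on DNA and act mostly as partners of Jun proteins in AP-1.

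Each factor had 1 library. The lists hold no score or read number, so library depth is unknown. The intervals below therefore cover differences between chromosomes or counting error, not differences between cultures, and a factor that is not listed at a site may still be there below the authors' threshold. The ATF2 list held 11547 sites and the ATF7 list 7375. The other lists, on the chromosomes used, ranged from 5875 sites for KLF4 to 17120 for KLF5. Depth, antibody and binding in the cells cannot be told apart as sources of the difference in list length.

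Most ATF7 sites were also ATF2 sites, whereas most ATF2 sites lacked ATF7. ATF2 was listed at 65.9% of the ATF7 sites (exact 95% interval 64.8 to 67.0%), and ATF7 at 42.1% of the ATF2 sites (41.2 to 43.0%). Of all sites listed for either factor, 34.6% were shared (33.8 to 35.4%), 47.5% were ATF2-only and 17.9% were ATF7-only. Because the ATF2 list is longer, these unequal shares do not show that ATF7 depends more on ATF2 than the reverse.

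Shared sites carried more of every other factor than sites of ATF2 or ATF7 alone. Among the AP-1 subunits, FOSL2 was listed at 42.9% of shared sites, 19.4% of ATF2-only sites and 16.2% of ATF7-only sites, where its list covers 18.1% of all common intervals. cJun, a Jun protein that dimerises with both Fos and ATF proteins, was listed at 25.3%, 11.7% and 11.9% of the classes in the same order, against 17.8% of all common intervals. For JunB, a second Jun protein, the shares were 38.3%, 21.5% and 19.8%, against 29.0%. FOSL2 thus stood well above its overall share at shared sites and close to it at sites of a single ATF factor, while both Jun proteins lay below their overall share there. Sites with neither ATF factor are in the common set only if another factor is listed, which raises the overall shares, so the tests below compare only the 3 ATF classes.

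The Krüppel-like factors and the receptors followed the same order for shared sites. KLF5, which acts early in adipogenesis, was listed at 55.0% of shared, 35.9% of ATF2-only and 30.5% of ATF7-only sites, against 49.3% of all common intervals. Its relative KLF4 was listed at 29.0%, 13.4% and 11.5%, against 16.9%. VDR had 38.5%, 19.6% and 20.2%, against 34.0%, and RXR had 39.9%, 22.5% and 20.9%, against 34.8%. KLF5 was the factor listed most often in each ATF class, and it also had the longest list.

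**Figure D1:**
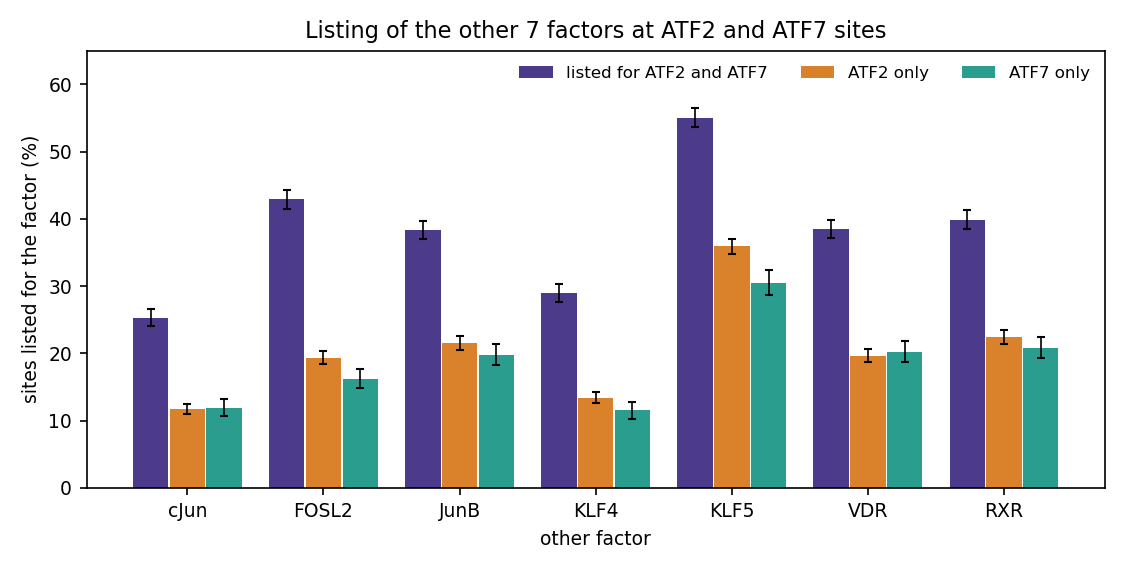
Share of sites (%, vertical axis) listed for each of the 7 other factors (horizontal axis) among 4863 shared, 6684 ATF2-only and 2512 ATF7-only sites. Bars are shares and error bars exact 95% intervals from counting. Every factor is more frequent at shared sites, by 13.4 to 26.7 points.

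All 14 differences between shared sites and a single-factor class held in a jackknife over the 20 chromosomes, after Bonferroni correction for 21 differences. They ran from 13.4 points for cJun against ATF7-only sites (95% interval 11.3 to 15.5) to 26.7 points for FOSL2 against ATF7-only sites (23.9 to 29.4). Each was positive on 20 of 20 chromosomes, except that of cJun against ATF7-only sites, which was positive on 19. All were smaller within either part of the row order of the lists, split at the median place of the ATF sites. In the upper part all 14 passed. FOSL2 differed there by 23.2 and 24.9 points, KLF5 by 10.7 and 17.2 and RXR by 8.34 and 10.0 from ATF2-only and ATF7-only sites. In the lower part 12 of the 14 passed. There cJun differed by 4.65 and 4.66 points, VDR by 6.46 and 6.11 and FOSL2 by 10.8 and 14.9 from ATF2-only and ATF7-only sites, while KLF4 did not pass, at 2.75 and 3.10 points. Without sites lacking any other factor all 14 passed, and the KLF5 differences were 5.65 and 11.7 points.

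The 2 single-factor classes were far closer to each other. Of 7 factors, KLF5 alone passed, with 5.40 points more at ATF2-only than at ATF7-only sites (2.88 to 7.92) and a positive difference on 17 of 20 chromosomes. FOSL2 was 3.13 points higher at ATF2-only sites (0.373 to 5.89) and KLF4 1.87 points higher (0.548 to 3.19), neither of which passed the correction. Without chromosome 10 the FOSL2 difference passed, at 4.23 points. That of KLF5 did not pass in the upper part of the row order, at 6.47 points, or without sites lacking any other factor, at 6.06. For JunB the difference was 1.70 points (-0.283 to 3.69), for RXR 1.60 (-0.192 to 3.39), for cJun -0.17 (-1.77 to 1.42) and for VDR -0.58 (-2.50 to 1.34).

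Shared sites also held more factors in total. A shared site carried a mean of 2.69 of the 7 other factors, an ATF2-only site 1.44 and an ATF7-only site 1.31. No other factor was listed at 27.1% of shared sites, against 48.6% of ATF2-only and 52.2% of ATF7-only sites. At the other end, 36.6% of shared sites carried 4 or more other factors, against 16.4% and 14.8%. The mean of shared sites exceeded that of ATF2-only sites by 1.25 factors (1.11 to 1.39) and that of ATF7-only sites by 1.38 (1.22 to 1.54), on 20 of 20 chromosomes in both cases. ATF2-only sites exceeded ATF7-only sites by 0.129 (0.0455 to 0.213), a difference that passed. It was positive on 14 chromosomes and negative on 6. Without chromosome 10 this difference was 0.124 and did not pass.

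Joint listing of the 2 ATF factors was more frequent at sites with more of the others. Where none of the 7 was listed, 28.8% of 4566 ATF2 sites also carried ATF7 and 50.1% of 2628 ATF7 sites also carried ATF2. With 4 others the shares were 49.3% and 77.1%. Where all 7 were listed, 78.8% of 640 ATF2 sites carried ATF7 (75.4 to 81.9%) and 92.5% of 545 ATF7 sites carried ATF2 (89.9 to 94.5%). Steps were uneven: at ATF2 sites the share was 42.2% with 1 other factor and 41.4% with 2, values within each other's intervals, and at ATF7 sites 80.6% with 5 and 80.2% with 6.

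**Figure D2:**
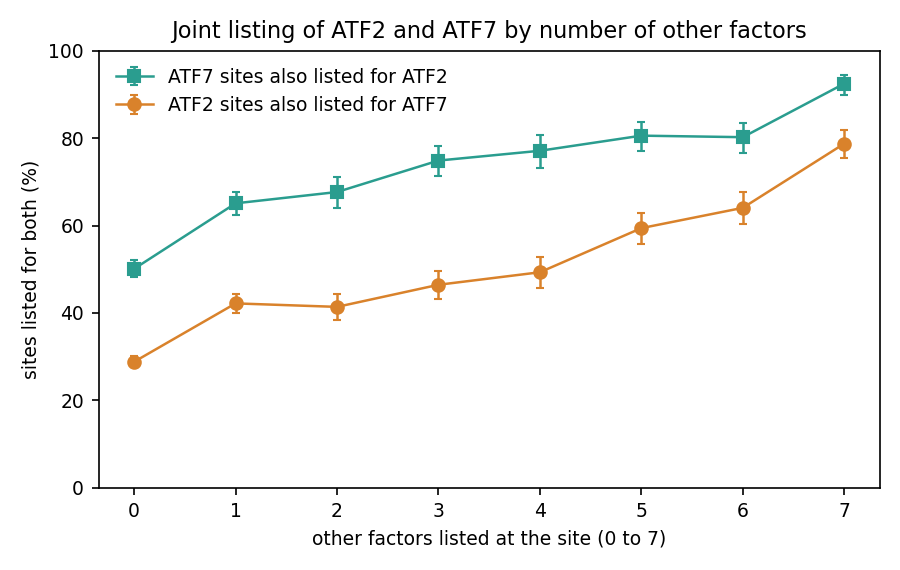
Share of ATF2 sites also listed for ATF7, and of ATF7 sites also listed for ATF2 (%, vertical axis), by the number of the other 7 factors listed at the site (horizontal axis). Error bars are exact 95% intervals from counting. ATF2 sites go from 28.8% with no other factor to 78.8% with 7, and ATF7 sites from 50.1% to 92.5%.

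A shared site without any other factor was nonetheless common: there were 1317, the most frequent make-up of the class. Sites with all 7 came next, with 504 shared sites or 10.4% of the class, against 136 ATF2-only sites (2.03%) and 41 ATF7-only sites (1.63%). Among ATF2-only and ATF7-only sites, the second most frequent make-up was KLF5 alone, at 8.68% and 6.97%, and the next was FOSL2 alone, at 3.37% and 4.66%. Shared sites were spread over 112 different combinations of the other factors, ATF2-only sites over 110 and ATF7-only sites over 87.

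Individual sites show what the classes look like, named here as the first by position on chromosome 1 (mm9, 1-based). The shared site at chr1:16218432-16218831 carried all 7 other factors and stood 10.8% of the way down the ATF2 list and 13.9% down the ATF7 list. The shared site at chr1:9535191-9535590 carried none of them and stood at 82.5% and 85.5%. An ATF2-only site with all 7 lay at chr1:40236370-40236769, with the next common interval 0.541 kb away, and one with none at chr1:4775673-4776072, with the next interval 111.7 kb away. The ATF7-only counterparts were chr1:63613586-63613985, with all 7 and the nearest interval at 49.2 kb, and chr1:13178475-13178874, with none and the nearest at 18.6 kb. Annotation of mm9 was not used here, so no gene or exon is given for these sites.

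Since shared sites held more factors of every kind, each factor was next compared at sites with equal numbers of the remaining 6. FOSL2 then stood apart from the rest. It was 13.2 points more frequent at shared than at ATF2-only sites (9.85 to 16.5, positive on 19 of 20 chromosomes) and 15.5 points more frequent than at ATF7-only sites (13.5 to 17.6, positive on 20 of 20). The differences of cJun, JunB and RXR lay between -1.03 and 0.85 points and did not pass. In the upper part of the row order, however, the matched differences of RXR were negative and both passed. They were -4.86 points (-6.67 to -3.05) against ATF2-only sites and -5.81 points (-8.07 to -3.56) against ATF7-only sites. Before matching, RXR in this part was more frequent at shared sites, by 8.34 and 10.0 points, and both passed. At sites with equal numbers of other factors, FOSL2 was thus more frequent where ATF2 and ATF7 were listed together. For the Jun proteins no such difference passed, and their 95% intervals lay between -2.56 and 2.43 points. The number held equal for each Jun protein included FOSL2 and the other Jun protein, and that for RXR also included FOSL2. Without the FOSL2 list, cJun passed against ATF2-only sites, at 2.44 points (0.970 to 3.91), and not against ATF7-only sites, at 0.854. JunB then differed by 2.63 points (0.771 to 4.48) from ATF2-only sites and 2.68 points (0.196 to 5.17) from ATF7-only sites. Neither JunB difference passed. Over the whole row order and without the FOSL2 list, RXR differed by 0.813 and 0.571 points from ATF2-only and ATF7-only sites, and neither passed.

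KLF factors and VDR kept smaller differences. KLF5 was 3.34 points higher at shared than at ATF2-only sites (1.49 to 5.18) and 7.61 points higher than at ATF7-only sites (4.88 to 10.3). KLF4 was higher by 2.79 points (1.23 to 4.34) and 3.57 points (1.71 to 5.42). VDR was higher at shared than at ATF2-only sites by 3.16 points (1.65 to 4.68), but not against ATF7-only sites, where the difference was -0.09 (-1.90 to 1.72). Between the single-factor classes KLF5 was again the one factor that passed, with 3.99 points more at ATF2-only sites (1.76 to 6.21). VDR had the opposite direction, at -2.51 points (-4.15 to -0.877), which did not pass. Without chromosome 10 it was VDR that passed, at -3.12 points (-4.34 to -1.91), together with FOSL2 at 3.33 points (1.87 to 4.78), and not KLF5, at 3.56. In all, 8 of 21 differences passed at equal numbers, against 15 of 21 before.

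**Figure D3:**
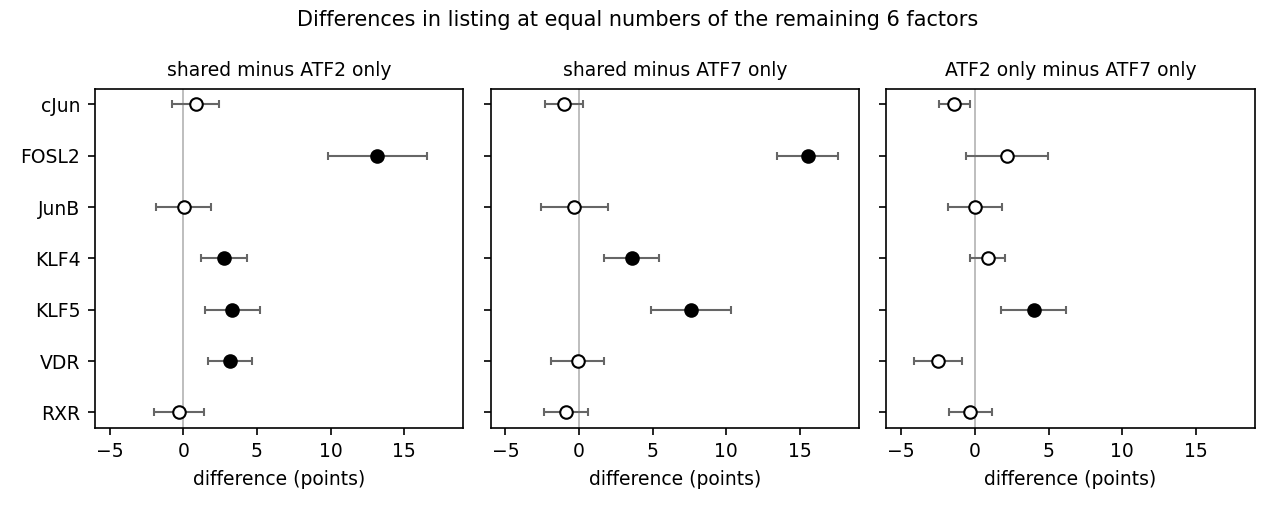
Difference between classes in the share of sites listed for each factor (percentage points, horizontal axis) at equal numbers of the remaining 6 factors. Points are estimates, bars are 95% intervals from the jackknife over 20 chromosomes, and filled points passed the Bonferroni correction over 21 differences. FOSL2 lies at 13.2 and 15.5 points in the left and middle panels, and cJun, JunB and RXR lie between -1.03 and 0.85 points there.

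The difference of FOSL2 was set directly against that of each other factor, a comparison chosen after its value had been seen. It exceeded the other 6 by 9.85 to 13.5 points for shared against ATF2-only sites and by 7.90 to 16.5 points for shared against ATF7-only sites, and all 12 of these contrasts passed a Bonferroni correction over 12. That correction does not cover the choice of FOSL2, whose differences were the largest. The room for a difference in points also varies with how often a factor is listed. As the sole other factor, cJun was listed at 22 ATF sites, RXR at 178, FOSL2 at 613 and KLF5 at 1136. Without chromosome 10, where FOSL2 was listed at 57.7% of shared sites, all 12 contrasts still passed, at 7.59 to 16.2 points. FOSL2's own 2 differences were then 11.8 and 15.1 points. Among the ATF sites in the upper part of the row order they were 17 and 17.9 points, and in the lower part 6.55 and 10.1, so that the size, but not the call, moved with row place. Other differences at equal numbers were less steady. KLF4 did not pass without chromosome 10 against either single class, at 2.70 and 3.4 points. Over 11 alternatives, KLF5 passed in 6 against ATF2-only sites, in 9 against ATF7-only sites and in 5 between the single classes. KLF4 passed in 4 and 9 against the single classes, and VDR in 9 against ATF2-only sites. Between the single classes VDR passed in 5 and FOSL2 in 2. Some of these differences were near 0 in an alternative. Without sites lacking any other factor, KLF5 differed from ATF2-only sites by 0.0536 points (-1.69 to 1.80). In the upper part of the row order, VDR differed from ATF2-only sites by 0.19 points (-1.85 to 2.23). In the lower part, KLF4 differed by 0.601 points from ATF2-only and 0.556 points from ATF7-only sites.

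Sites with exactly 1 other factor, a part of the same sites, were described without adjustment by another measure, the share of ATF sites that were shared. With FOSL2 as the sole other factor, 44.2% of 613 ATF sites were shared (40.2 to 48.2%). The share was 33.5% of 1136 sites with KLF5 alone (30.8 to 36.4%), 30.2% of 215 with VDR alone (24.2 to 36.8%), 22.8% of 197 with JunB alone (17.2 to 29.3%) and 21.3% of 178 with RXR alone (15.6 to 28.1%). Without any other factor it was 22.4% of 5877 sites (21.3 to 23.5%). It was 39.8% of 83 sites with KLF4 alone (29.2 to 51.1%) and 36.4% of 22 with cJun alone (17.2 to 59.3%). The intervals for FOSL2, KLF5, VDR and KLF4 lay above the share of sites with no other factor, and those for JunB, RXR and cJun included it.

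The share of ATF sites that were shared differed between combinations of AP-1 subunits, although 2245 shared sites had no AP-1 subunit. Among ATF sites with no KLF factor and no receptor, the shared share was 22.8% with JunB and 23.0% of 74 sites with cJun and JunB (14.0 to 34.2%), next to 22.4% with no AP-1 subunit. With FOSL2 and JunB it was 36.9% of 187 sites (30.0 to 44.2%), and with all 3 subunits 46.9% of 160 sites (39.0 to 54.9%). In the company of KLF5, VDR and RXR the shares were higher throughout: 35.1% of 473 sites without AP-1, 43.5% of 262 with JunB (37.4 to 49.7%) and 39.4% of 383 with cJun and JunB (34.5 to 44.5%). With FOSL2 they were 65.4% of 217 sites, with FOSL2 and JunB 60.7% of 338 (55.2 to 65.9%) and with all 3 70.4% of 895. In both settings the shared share was higher at sites with FOSL2 than at sites with JunB, or cJun and JunB, and no FOSL2. Without KLF factors and receptors, the intervals for FOSL2 and JunB and for cJun and JunB overlapped.

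Adding FOSL2 to a fixed combination of the other 6 factors gave a higher shared share in 20 of 20 combinations that had at least 30 ATF sites with and without it. The median gain was 21.9 points, with a range of 9.71 to 33.9. The same step for KLF4 gave a higher share in 13 of 15 combinations, for VDR in 15 of 18, for KLF5 in 11 of 14, for RXR in 10 of 18, for cJun in 6 of 10 and for JunB in 6 of 11, where the median gain was 0.433 points. These counts describe the sites and carry no test, since combinations share sites of the same lists.

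Grouped by family, at least 1 AP-1 subunit was listed at 53.8% of shared, 30.0% of ATF2-only and 27.7% of ATF7-only sites. At least 1 KLF factor was listed at 56.8%, 37.0% and 31.9%, and at least 1 receptor at 47.1%, 27.7% and 26.2%. All 3 families met at 34.1% of shared sites, against 14.0% and 12.8%, differences of 20.1 points (17.5 to 22.8) and 21.3 points (18.7 to 24.0). For a single family without the others, 1 difference passed. AP-1 alone held 10.1%, 8.27% and 9.04%, and KLF alone 9.48%, 10.3% and 8.96%. Receptors alone had the opposite order, at 2.61% of shared, 3.53% of ATF2-only and 4.58% of ATF7-only sites, and the difference between the first and last, -1.97 points (-2.89 to -1.05), passed. It did not pass in the lower part of the row order (-0.60) or without the list of KLF5 (-2.31) or RXR (-0.996). In all, 10 of 21 family differences passed.

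The lists are not ordered by position, yet the intervals that a pair of lists has in common stand in the same order, in 36 of 36 pairs. No source used here says what the order means, and it is described as a place only. Sites shared by ATF2 and ATF7 stood nearer the top than sites of a single ATF factor. In the ATF2 list their median place was 34.2% of the way down, against 62.3% for ATF2-only sites, a difference of -28.1 points (-30.3 to -25.9). In the ATF7 list it was 40.2% against 71.3% for ATF7-only sites, a difference of -31.1 points (-34.8 to -27.5). At equal numbers of other factors, means were compared instead of medians. Both differences of means passed, at -13.1 points (-13.9 to -12.2) and -13.9 points (-15.5 to -12.4). Differences of means without matching were not computed, so the effect of matching on the size cannot be read from these values.

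Joint listing was less frequent further down both lists. In the top 10% of the ATF2 list 70.9% of sites carried ATF7, and in the last 10% 12.2%. In the ATF7 list the share with ATF2 was 87.0% in the top 10% and 27% in the last. The mean number of other factors was also lower further down, 4.03 in the top and 0.25 in the last 10% of the ATF2 list, and 4.18 and 0.34 in the ATF7 list. The same order was seen among ATF2 sites with no other factor: 44.2% of the 1388 in the first 5 of 10 equal blocks of the list carried ATF7 (41.5 to 46.8%), against 22.2% of the 3178 in the last 5 (20.7 to 23.6%).

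**Figure D4:**
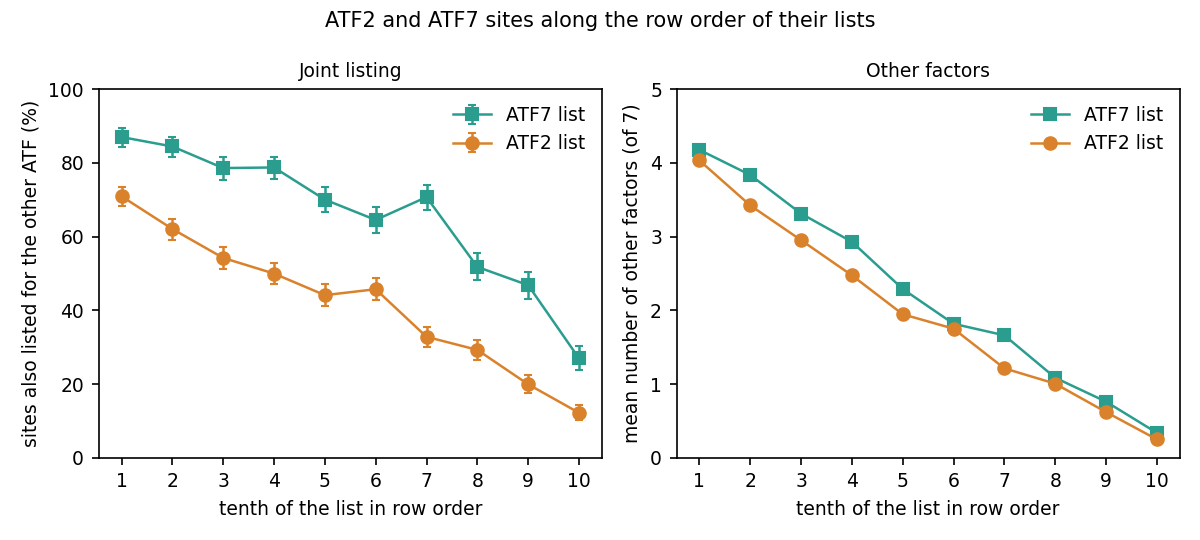
Left, share of sites also listed for the other ATF factor (%); right, mean number of the 7 other factors per site. Both are given for successive blocks of 10% of the ATF2 and ATF7 lists in row order (horizontal axis, 1 is the top), and error bars at left are exact 95% intervals from counting. Joint listing goes from 70.9% to 12.2% down the ATF2 list and from 87.0% to 27% down the ATF7 list.

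ATF2-only and ATF7-only sites were placed on one scale by the shared sites standing above them. The median ATF2-only site had 79.1% of the shared sites above it and the median ATF7-only site 82.3%, a difference of -3.18 points (-6.54 to 0.188) that did not pass. It passed without chromosome 10, at -4.15 points.

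Shared sites lay somewhat closer to other sites than single-factor sites did, and few of these differences passed. The nearest common interval of any factor lay a median of 4.41 kb from shared sites, 5.26 kb from ATF2-only sites and 5.27 kb from ATF7-only sites. The nearest other ATF2 site lay at medians of 18.1, 19.8 and 21.6 kb, and the nearest other ATF7 site at 30.7, 35.9 and 35.4 kb. None of 9 differences of medians passed. Without chromosome 10 the 3 between shared and ATF7-only sites did: shared sites were then nearer to any interval by a median difference of -1.49 kb (-2.13 to -0.839), to an ATF2 site by -4.92 kb (-7.92 to -1.91) and to an ATF7 site by -7.35 kb (-9.68 to -5.02). Of 18 differences in the share with a neighbour within 1 or 10 kb, 2 passed, both between shared and ATF7-only sites. An ATF2 site lay within 1 kb of 13.0% of shared and 10.3% of ATF7-only sites, 2.64 points apart, and an ATF7 site within 1 kb of 9.07% and 6.93%, 2.14 points apart. Without chromosome 10, 5 of these 18 shares passed. At equal numbers of other factors the same 2 differences passed, at 2.92 and 2.48 points. The share with any interval within 10 kb differed before by 3.30 points from ATF2-only and 4.25 points from ATF7-only sites, neither of which passed. At equal numbers these differences were -0.17 points (-2.97 to 2.64) and 0.25 points (-2.25 to 2.76).

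The make-up of ATF sites varied between chromosomes. The shared share had a median of 34.0% over the 20 chromosomes, from 25.2% of 159 ATF sites on chromosome X (18.6 to 32.6%) to 40.0% of 1017 on chromosome 5 (37.0 to 43.1%). ATF7-only sites made up 15.6% on chromosome 8 to 23.6% on chromosome 10 (21.2 to 26.1%), and without chromosome 10 the highest share was 20.2%. Chromosome 10 held 10.9% of all ATF7-only sites, 8.55% of shared and 7.12% of ATF2-only sites, against 6.98% of the common intervals.

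**Figure D5:**
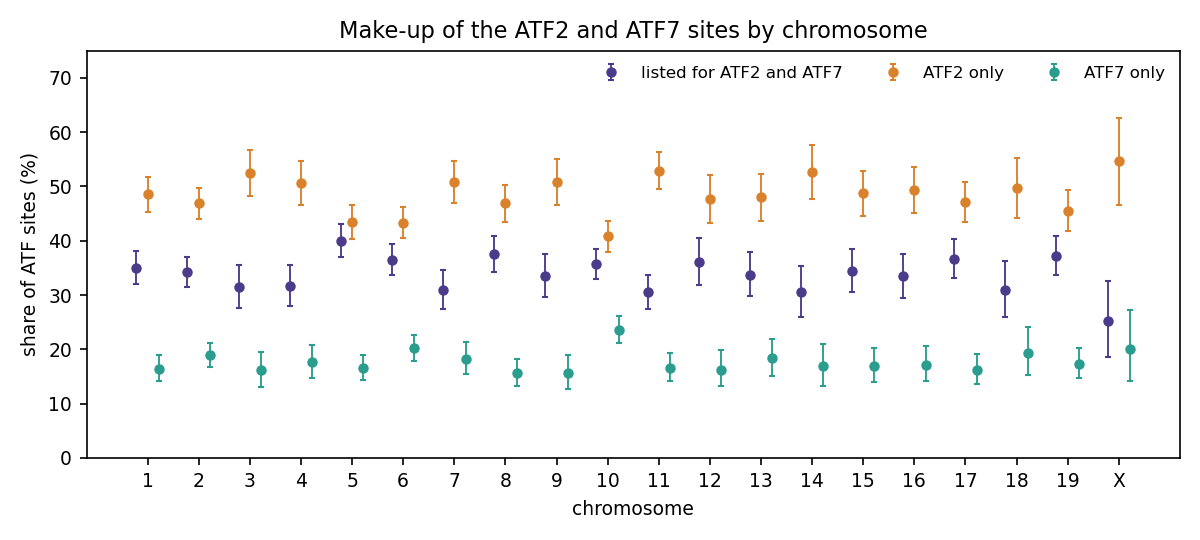
Share of shared, ATF2-only and ATF7-only sites among the ATF sites (%, vertical axis) of each chromosome (horizontal axis). Points are shares and bars exact 95% intervals from counting. Chromosome 10 has the highest ATF7-only share, 23.6%, and chromosome X the lowest shared share, 25.2%.

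On chromosome 10 the sites were dense. The 11 windows of 250 kb with the most ATF sites in the genome all lay there, between positions 106750001 and 118000000, and together held 5.04% of shared, 3.17% of ATF2-only and 6.57% of ATF7-only sites. Among stretches of ATF sites at most 10 kb apart, taken outside chromosome 18, the one with the most sites of each class was chr10:107661229-107833098, which held 73: 24 shared, 26 ATF2-only and 23 ATF7-only. FOSL2 was more frequent in the ATF classes of this chromosome than elsewhere, at 57.7% of shared, 26.9% of ATF2-only and 29.8% of ATF7-only sites, against 41.5%, 18.8% and 14.6% on the other chromosomes. Every other factor was less frequent in each class of this chromosome than elsewhere. KLF5, for example, was listed at 42.3%, 21.8% and 18.5%, against 56.2%, 37.0% and 32.0%. The number of DNA copies of these regions in the cells and the mapping of reads there were not analysed.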

How the data were processed

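ChIP-seq of 9 factors, with 1 library each, was used, and 21 further samples were not analysed here. Per factor, the authors deposited the mm9 coordinates of its intervals in 3 columns (chromosome, start, end) with no score or other value. Bowtie, HOMER and FastQC were used, per the submitters' processing notes, but no source used here gives the peak threshold. Library depth is unknown. All intervals were 400 bp long, and 2 on chromosome Y were left out. Sites were classed by identical coordinates and distances taken between midpoints. Shares carry exact Clopper-Pearson 95% intervals for counting error only. Differences carry 95% intervals from leaving out each of 20 chromosomes in turn (t distribution, 19 degrees of freedom) and passed where the interval, Bonferroni-corrected over the family, excluded 0. At equal numbers, classes were compared within each number of remaining factors and averaged with weights from both class sizes. The jackknife of the differences in listing, before matching for number, was tested on simulated classes with each factor drawn independently. The comparison at equal numbers was not tested in this way. Sites named were the first by position in each class with all or none of the other factors. The members, lists and comparisons were chosen with earlier results of these data known. Alternatives left out chromosome 10, close sites, sites with no other factor, 1 list at a time or the upper or lower part of the row order, split at the median place of the ATF sites. Motifs, sequences and nearby genes were not analysed, as no mm9 genome was used here. Calculations ran in Python 3.11.15 with scipy 1.17.1, numpy 2.4.6 and pandas 2.3.3.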

Additional observations from a re-analysis of the deposited data

How the results depend on the processing

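Over all alternatives, 774 differences were recomputed: 645 kept their direction and their side of the threshold, 54 differed in sign without passing in either setting, 44 no longer passed, 29 newly passed and 2 changed sign and passed. FOSL2 at equal numbers passed in all 11 alternatives, at 6.55 to 17 points against ATF2-only sites and 10.1 to 19.8 points against ATF7-only sites. The count of differences that passed at equal numbers, 8, was 5 in the upper part of the row order (3 of the same differences and 2 for RXR, less frequent at shared sites, at -4.86 and -5.81 points), 3 in the lower part, 5 without sites lacking any other factor and 5 without the KLF5 list, where 18 were tested. The mean number of other factors, 0.129 higher at ATF2-only than at ATF7-only sites, did not pass without chromosome 10 (0.124), in the upper part of the row order (0.128), without sites lacking any other factor (0.0610) or without the lists of FOSL2 (0.0982), KLF4 (0.111) or KLF5 (0.0755). Without sites lacking any other factor, AP-1 alone turned to -2.25 points (shared minus ATF2-only) and KLF alone to -5.73 points (shared minus ATF7-only). This setting left out 27.1% of shared, 48.6% of ATF2-only and 52.2% of ATF7-only sites, so the base of each share shrank by unequal amounts. The row place of ATF2-only against ATF7-only sites passed without chromosome 10 (-4.15) and without sites that have another interval within 400 bp (-3.56). Shares with a neighbour within 1 or 10 kb gave 5 passing differences without chromosome 10 and 1 without such close sites, and 3 of 9 median distances passed without chromosome 10. Counting any overlap of at least 1 bp as shared put ATF7 at 43.3% of ATF2 sites. The highest ATF7-only share was 20.2% without chromosome 10. The cause of the other changes was not tested. A stricter peak threshold was not run because the lists hold no score, and the share with no other factor has no value once those sites are left out. No paired analysis was possible because ATF2 and ATF7 have 1 library each, with no replicate number.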

Other observations

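Shared sites had shared neighbours more often than their overall share. Where another ATF site was the nearest within 10 kb, it was shared for 39.3% of 2120 shared sites (exact 95% interval 37.3 to 41.5%), against 34.6% of all ATF sites. Without chromosome 10 it was shared for 38.1% of 1810 shared sites (35.9 to 40.4%), against 34.5%. For ATF7-only sites it was ATF7-only in 21% of 1041 cases (18.6 to 23.6%), against 17.9% of all ATF sites, and without chromosome 10 in 19.7% of 837 cases (17.1 to 22.6%), against 17.4%. For ATF2-only sites it was ATF2-only in 48.2% of 2740 cases, against 47.5%. The overall share lies within the interval for ATF2-only sites (46.3 to 50.1%) and, without chromosome 10, for ATF7-only sites. The shares of all ATF sites also count sites without another ATF site within 10 kb. Neighbouring sites are not independent, and these values carry no test.

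Joined at 10 kb, the ATF sites formed 10333 stretches, of which 2175 held 2 or more sites. Shared sites occurred in 63.0% of the longer stretches, 412 held only ATF2-only sites and 54 only ATF7-only sites. Outside chromosomes 10 and 18, the stretch with the most shared sites was chr17:27268208-27298339, with 8 shared sites of 10.

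The top of the row order held sites with many other factors and sites with none. Among the first 100 sites of the ATF2 list, 70 were shared, 31 carried all 7 other factors and 26 carried none. Among the first 100 of the ATF7 list, 81 were shared, 33 carried all 7 and 21 none. Of these first 100, chromosome 10 held 20 and 19 sites in the lists of ATF2 and ATF7.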
